A study of Mus musculus with 64 samples.

Results

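KLRG1-positive CD103-negative CD4 T cells were described in the colon of SCID mice with T cell transfer colitis, from counts of antibodies bound to the surface of single cells. The members were selected on their antibody counts: they were the barcodes positive for CD3, CD4 and KLRG1 and not positive for CD103, CD11b or CD64. There were 8923 of them among 130442 barcodes kept, called cells here, and among 57817 CD4 T cells. The remaining CD4 T cells were 38621 cells lacking both KLRG1 and CD103 and 10273 CD103-positive cells, and both served as comparators.

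The libraries came from SCID mice, which lack T and B cells of their own and develop colitis after transfer of CD4 T cells with a high level of CD45RB. One library was made from the week 7 mice given anti-IL-12p40 from day 10, and 8 were made from untreated mice at weeks 0, 1, 2, 3, 4, 5, 6 and 7. The antibody anti-IL-12p40 binds the subunit that IL-12 and IL-23 have in common. Each library was a pool of colon from 3 animals, sorted as EpCAM- and CD45+ and stained with 11 tagged antibodies. With 1 pooled library in each group, spread between animals of one week was not measured.

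KLRG1 is an inhibitory lectin-like receptor of differentiated effector T cells, natural killer cells, some regulatory T cells and some innate lymphoid cells. It binds cadherins, E-cadherin of epithelial cells among them. CD103, the alpha chain of an integrin of T cells in the gut lining, binds E-cadherin as well. CD127 is the alpha chain of the IL-7 receptor, which carries a survival signal, and in mouse infection models a high KLRG1 level with a low CD127 level marks short-lived effector CD8 T cells.

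The libraries held 12914066 to 28723452 antibody counts, and the median per cell kept was between 576.5 counts at week 1 and 1566 counts in the library of the treated mice. Of the members, 300 carried a barcode that also occurred in another library, and 16 of those matched a member there. Pairs of libraries had 29 to 108 barcodes in common among the cells kept. The sample records give 16000 cells loaded per library. The barcodes at weeks 0, 2 and 4 numbered 16910, 21229 and 18103, more than were loaded, so some of them cannot each be a separate loaded cell. No RNA was analysed here, so the cells are named by their surface proteins alone.

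The lineage antibodies on the members were those of CD4 T cells. Over the 8 libraries with members, the median CD3 count was 35 to 68 on members, against 1 to 7 on KLRG1-positive cells that were negative for CD3 and CD4. The median CD4 count was 124.5 to 240 on members, against 1 to 8 on those innate KLRG1-positive cells. CD11b had a median of 3 to 10 counts on members, against 161 to 584.5 counts on CD3-negative cells positive for CD11b or CD64. These values follow from the rule and are a description.

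Members were chosen by KLRG1, so its level was not tested. The gate was set on the KLRG1 count after adding 1, taking natural logs and subtracting the cell's mean over the 11 antibodies, which is a centred log ratio. The median KLRG1 count of members was 22.5, 21, 33, 22, 25 and 22 at weeks 1 to 6 in turn, and in week 7 it was 20 in the treated library and 23 in the untreated one. On CD4 T cells lacking KLRG1 and CD103 the medians were 0 to 3 counts. At least 10 KLRG1 counts were present on 81.8% to 98.5% of members.

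The shape of the KLRG1 distribution differed between weeks. Among CD103-negative CD4 T cells, week 2 had a second peak above the threshold and week 3 had a second hump that lay across it. From week 4 on the members lay in a tail with no second peak. At week 2 the highest bin above the threshold held 4.82% of the cells, against 3.11% in the lowest bin between it and the main peak. At week 3 the bin that holds the threshold had 6.80% of the cells and the highest bin above it had 6.72%, against 5.27% in the valley. In the treated library and at weeks 4, 5, 6 and 7, the highest bin above the threshold was the first one, and at week 1 the second peak was 8 cells against 4 in the valley. In the later libraries no valley separated members from other cells.

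Cells close to the threshold were correspondingly many. The share of members within 0.25 above it was 12.2%, 19.9%, 23.8%, 21.0% and 29.7% at weeks 2 to 6 in turn, and in week 7 it was 18.7% in the treated library and 22.6% in the untreated one. The median KLRG1 count was 7 to 18 just inside the threshold and 2.5 to 14 just outside it, over the 8 libraries.

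**Figure D1:**
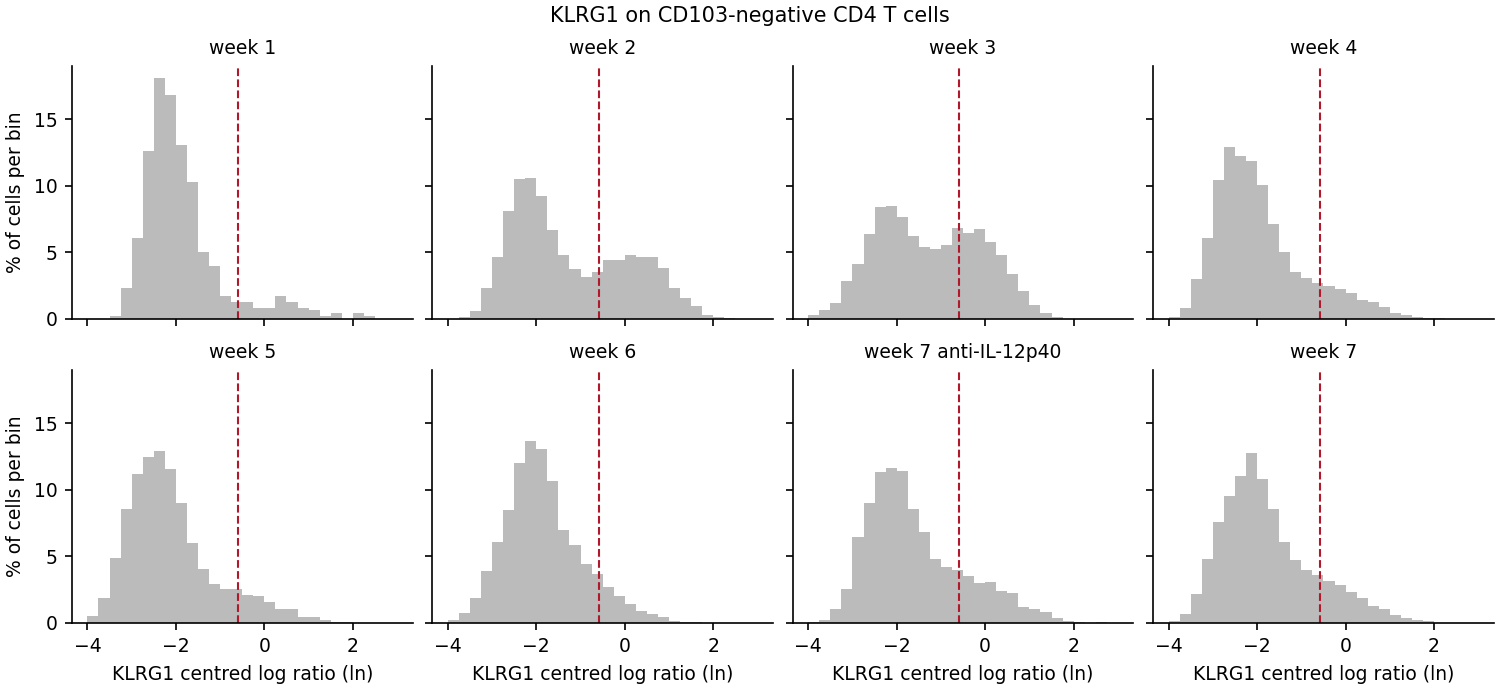
The horizontal axis is the KLRG1 centred log ratio of CD103-negative CD4 T cells in bins of 0.25, and the vertical axis is the percent of those cells in each bin, with a panel per library and the threshold as a line. Week 2 has a second peak beyond the threshold, week 3 has one that lies across it, and the later libraries have a tail.

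No member was found at week 0, and members were most frequent at weeks 2 and 3. The rule found 0 of 16735 cells at week 0, which allows a share of up to 0.0179%, and 1 cell in all was a CD4 T cell there. Of all cells, members made up 0.349%, 10.9%, 17.5%, 5.28%, 5.14%, 4.63% and 9.82% at weeks 1 to 7 in turn. Weeks 2 and 3 were the highest, and week 7 was higher than weeks 4, 5 and 6.

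Within CD4 T cells the same weeks stood out. Members were 8.45%, 31.6%, 30.8%, 10.6%, 7.53%, 8.45% and 11.4% of CD4 T cells at weeks 1 to 7 in turn. The share of week 1 rests on 44 members. With a KLRG1 threshold fitted in each library the shares at weeks 4 to 7 were 18.0%, 14.4%, 18.1% and 18.5%, and those at weeks 2 and 3 were 36.8% and 44.1%, so the later shares depend on where the threshold is put. The KLRG1-positive share of CD103-negative CD4 T cells, which leaves the CD103-positive cells out of the denominator, was 9.24%, 33.4%, 33.4%, 12.2%, 9.83%, 9.58% and 15.1% over the same weeks. Setting the CD103-positive cells aside left weeks 2 and 3 above the others. For comparison, the same KLRG1 threshold was passed by part of the CD3-negative CD11b- or CD64-positive cells. The shares were 17.7%, 15.9%, 9.41% and 4.25% at weeks 0 to 3 in turn and 0.952% to 2.82% from week 4 on. The median total of these cells was 1002 to 3282 counts, against 719.5 to 1598 on members. At week 0, 25.4% of them had at least 10 KLRG1 counts. Which cell types they hold was not tested, so their share is not a measured rate of false calls. The member share of week 1 lies below that of these CD3-negative cells. The 44 members of week 1 had a median of 22.5 KLRG1 counts, against 0 on the CD4 T cells lacking KLRG1 and CD103. The shares of weeks 2 to 7 lie above that of the CD3-negative CD11b- or CD64-positive cells of their own library.

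None of 3 share trends with week passed the adjusted threshold. The share of all cells had a Spearman rho of 0.333 over 8 untreated libraries (two-sided exact permutation p = 0.428, adjusted p = 0.963) and a Pearson r of 0.304 (exact permutation p = 0.469, adjusted p = 0.469). Within CD4 T cells rho was -0.143 over 7 libraries (exact permutation p = 0.783, adjusted p = 0.963) and r was -0.43 (exact permutation p = 0.327, adjusted p = 0.469). For the KLRG1-positive share of CD103-negative cells, rho was -0.0357 (exact permutation p = 0.963, adjusted p = 0.963) and r was -0.38 (exact permutation p = 0.396, adjusted p = 0.469). Without the libraries of weeks 1 and 7, rho was -0.9 (exact permutation, adjusted p = 0.125) and r was -0.895 (exact permutation, adjusted p = 0.075) within CD4 T cells. Within CD103-negative cells rho was then -1 and r was -0.897, each with an exact permutation adjusted p of 0.05, which is not below the threshold. Without weeks 0 and 7 the share of all cells gave rho = -0.0857 and r = -0.0718, and the shares within CD4 T cells and CD103-negative cells gave rho = -0.314 and -0.143.

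**Figure D2:**
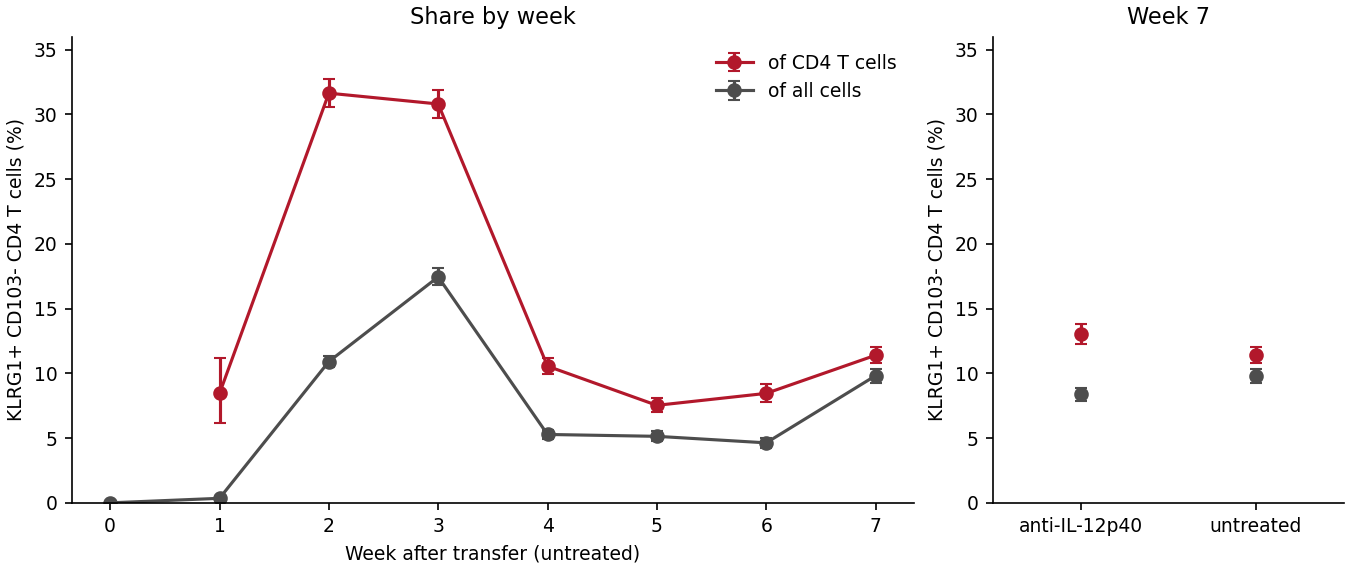
Shares of members in percent (vertical axes) by week (horizontal axes), with exact binomial intervals of 95%, for the untreated libraries and the week 7 library of mice given anti-IL-12p40. The shares are highest at weeks 2 and 3, where members reach 31.6% and 30.8% of CD4 T cells.

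Members came to make up most of the KLRG1-positive cells of the untreated sorted libraries. At week 0, innate KLRG1-positive cells, which were negative for CD3, CD4, CD11b and CD64, were 79.5% of all KLRG1-positive cells, and at week 1 they were 81.6%. Members were 1.06%, 40.1%, 65.4%, 66.5%, 62.4%, 62.8% and 83.0% of KLRG1-positive cells from week 1 to week 7. Over the same weeks the innate cells were 81.6%, 38.1%, 25.4%, 19.4%, 21.2%, 13.2% and 5.11% of that pool. Their share of all cells was 23.3% at week 0 and 0.605% at week 7.

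The antibodies that the rule did not name were CD90.2, CD127, Ly-6C, Ly-6G and CD11c. Their level was taken as the natural log of the count plus 1, centred on the cell's mean over these 5, and averaged over the cells of a library. The 5 levels of a cell sum to 0 by construction, so that when one is lower the others are higher together. Differences between members and each comparator were tested over the 6 untreated libraries with at least 50 members, weeks 2 to 7, with a two-sided exact sign-flip test and adjustment over 10 tests.

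Members carried less CD127 than the other CD4 T cells of the same library. The median CD127 count of members was 1, 7, 4, 5, 6 and 8 at weeks 2 to 7 in turn. On CD4 T cells lacking KLRG1 and CD103 the medians in the same order were 3, 11, 9, 10, 9 and 12.5 counts, and on CD103-positive cells they were 4, 15, 11, 13, 10 and 17 counts. In the treated library the medians were 5 on members, 9 on cells lacking both proteins and 10 on CD103-positive cells. The member median was the lowest in each of these 7 libraries.

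Against cells lacking KLRG1 and CD103, the CD127 level of members was lower by 0.28 ± 0.10 on the natural log scale (mean difference -0.28, SD over n = 6 libraries), a ratio of 0.756. It was lower in 6 of 6 libraries (exact sign-flip permutation p = 0.0312, the smallest that 6 libraries can give, adjusted p = 0.0446). That adjusted p passes only because 7 of 10 tests shared the smallest p. Besides CD127, those were tests of Ly-6C, Ly-6G and CD11c, which are higher together on this scale when CD127 is lower. The CD127 call thus leans on tests that are not independent of it, and it did not pass without centring. The CD127 differences were -0.30, -0.21, -0.45, -0.31, -0.17 and -0.25 at weeks 2 to 7, the largest of them at week 4, and -0.34 in the treated library, which the test left out. Against CD103-positive cells the difference was -0.42 ± 0.08 (SD, n = 6), a ratio of 0.660, again lower in 6 of 6 libraries (exact sign-flip permutation p = 0.0312, adjusted p = 0.0446). At week 1, with 44 members, the difference was +0.01 against cells lacking both proteins and +0.25 against CD103-positive cells.

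The 2 distributions overlapped. Of the members, 64.5% to 76.3% lay below the CD127 median of the cells lacking KLRG1 and CD103 at weeks 2 to 7, and 70.4% did so in the treated library. At week 2, 33.5% of members and 19.3% of cells lacking both proteins had no CD127 count at all, which leaves that library little room for a difference in counts.

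Since the KLRG1 threshold is read against a cell mean that contains CD127, the comparison was repeated with CD127 left out of that mean, an alternative chosen after the data had been seen. The CD127 differences were then -0.23 and -0.44 against cells lacking both proteins and CD103-positive cells (exact sign-flip permutation, adjusted p = 0.0446 for each, lower in 6 of 6 libraries). With a gate of at least 10 KLRG1 counts in place of the ratio they were -0.27 and -0.40 (exact sign-flip permutation, adjusted p = 0.0446 for each). The calls did not pass when every cell was thinned to 200 counts (-0.16 and -0.24, exact sign-flip permutation, adjusted p = 0.0521, still lower in 6 of 6 libraries), and 5 libraries cannot pass at all, since their smallest exact permutation p is 0.0625.

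Among 5 antibodies, 4 passed against cells lacking KLRG1 and CD103 (80.0%) and 3 passed against CD103-positive cells (60.0%), so a passed test was the usual outcome in this panel. At an unadjusted p below 0.05, 7 of 10 tests passed (70.0%), the same number as after adjustment. Ly-6C, a surface protein of activated and memory T cells in mice as well as of monocytes, had a higher centred level on members by 0.13 ± 0.03 and 0.25 against these comparators (SD, n = 6; exact sign-flip permutation, adjusted p = 0.0446 for each), but without centring the differences were -0.02 and -0.00025. Ly-6G, a neutrophil protein, was higher by 0.09 ± 0.04 and 0.21, and the uncentred differences were -0.06 and -0.04. CD11c, of dendritic cells, was higher by 0.08 ± 0.05 against cells lacking both proteins, and the uncentred difference was -0.07. Centred on all 11 antibodies, these 3 differences against cells lacking both proteins were -0.12, -0.15 and -0.16. Median counts on members were low, at 1 to 13 for Ly-6G and 4 to 10 for CD11c at weeks 2 to 7. Against cells lacking both proteins, the Ly-6G median of members was higher in 0 of 7 libraries, equal in 4 and lower in 3. For CD11c it was higher in 0, equal in 2 and lower in 5.

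The direction for Ly-6C, Ly-6G and CD11c thus turned with the centring, whereas that of CD127 was negative on each scale, at -0.43 and -0.66 without centring, where its calls ended (exact sign-flip permutation, adjusted p = 0.0625 for each, lower in 6 of 6 libraries). CD90.2, the Thy-1 protein of T cells, did not pass against either comparator, at -0.03 ± 0.05 (exact sign-flip permutation p = 0.25, adjusted p = 0.313) and -0.01 (exact sign-flip permutation, adjusted p = 0.906). Its uncentred median count was 295 to 766 on members and 376 to 977 on cells lacking KLRG1 and CD103 at weeks 2 to 7. With the treated library included, the member median was lower in 7 of 7 libraries against each comparator. Over 26 alternatives the CD90.2 difference from cells lacking both proteins ranged from -0.27 to 0.013. In 1 of them it passed with the same sign. The median total per cell was 719.5 to 1265 counts on members and 813 to 1482 counts on cells lacking both proteins, and was lower on members in 6 of 7 libraries. In cells of 500 to 2000 counts alone, the CD127 differences were -0.29 and -0.44.

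**Figure D3:**
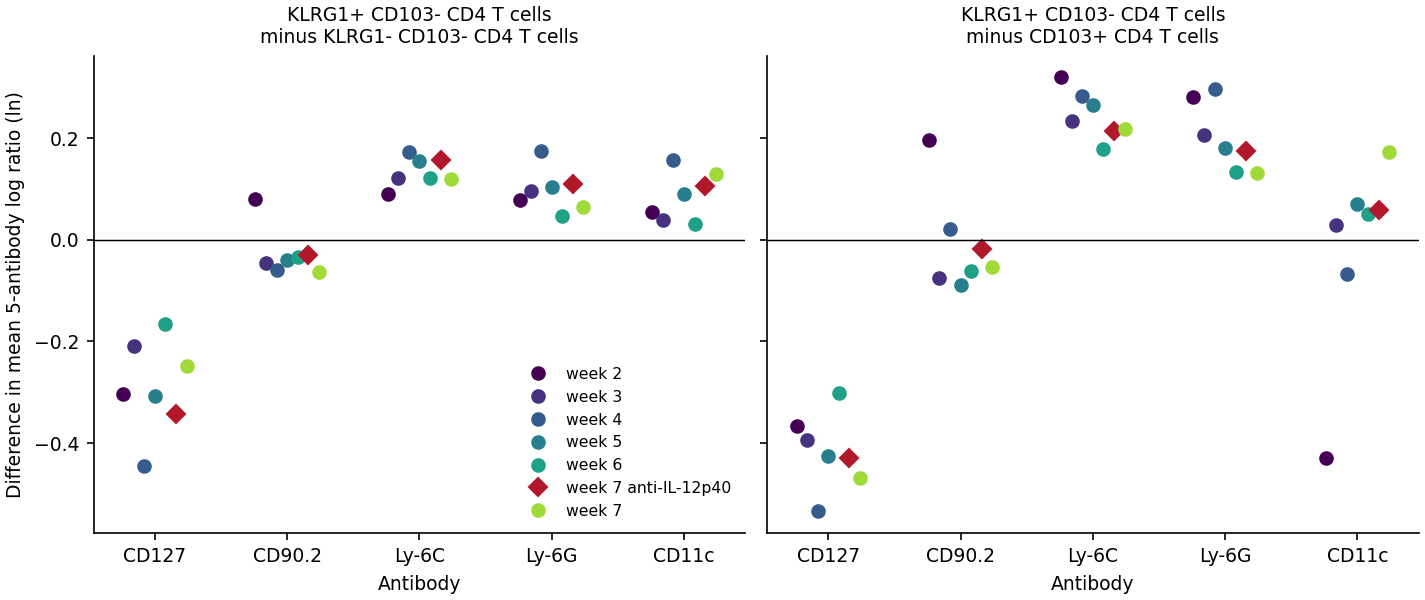
Differences in centred level (natural log, vertical axes) for the 5 antibodies that the rule did not use, members minus cells lacking KLRG1 and CD103 and members minus CD103-positive cells, one point per library. CD127 lies below 0 in each library in both panels, by 0.28 and 0.42 on average at weeks 2 to 7.

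Read the other way, KLRG1-positive cells were most frequent where CD127 was lowest. CD103-negative CD4 T cells of each library were split into quartiles of CD127 level. At week 3, 46.0% of cells in the lowest CD127 quartile were KLRG1-positive, then 38.4%, 29.3% and 19.9% in the next ones. At week 4 the shares were 22.6%, 13.3%, 8.24% and 4.92%, and in the treated library they were 31.5%, 20.2%, 15.1% and 10.2%, while at week 7 without treatment they were 23.6%, 15.0%, 13.0% and 8.79%. The share fell at each step in weeks 2 to 7 and in the treated library, but not at week 1, where it was 10.9%, 7.56%, 6.72% and 11.8%. This is the CD127 difference in another form and adds no test.

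**Figure D4:**
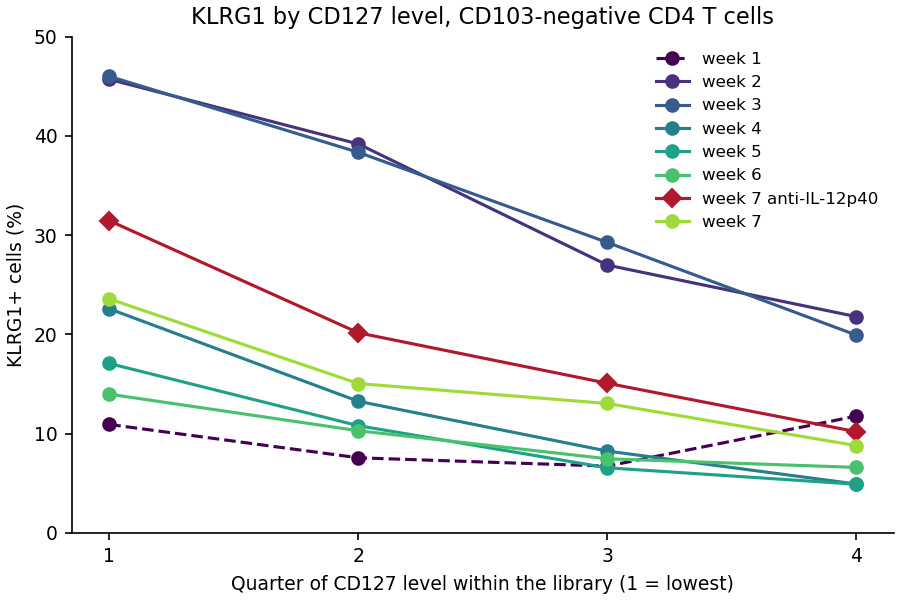
KLRG1-positive percent of CD103-negative CD4 T cells (vertical axis) by quartile of CD127 level within the library (horizontal axis, lowest to highest), a line per library. The lines of weeks 2 to 7 and of the treated library fall from left to right, for example 46.0% to 19.9% at week 3.

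Among the members themselves, a higher KLRG1 level went with little change in CD127. The Spearman rho between KLRG1 and CD127 over the members of a library was -0.115 to -0.043 in the 6 untreated libraries and 0.029 in the treated library. These are correlations over cells that share a library, a depth and the cell mean, given with no test. The CD127 level of the KLRG1-highest tercile less that of the lowest was -0.19 to -0.03 in the untreated libraries and 0.02 in the treated one.

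The centred levels on members were set against week for the 5 antibodies over the 6 untreated libraries, and by Spearman's rho 0 of 5 trends passed the adjusted threshold (0.00%), with 2 of 5 at an unadjusted exact permutation p below 0.05, while by Pearson's r that of Ly-6C passed. Ly-6C had the lowest rho, -0.943 (exact permutation p = 0.0167, adjusted p = 0.0833), and an r of -0.91 (exact permutation p = 0.00833, adjusted p = 0.0417). Its median count on members was 163, 247, 142.5, 125, 165 and 99 at weeks 2 to 7 in turn. CD127 had a rho of 0.886 (exact permutation p = 0.0333, adjusted p = 0.0833) and an r of 0.86 (exact permutation p = 0.0361, adjusted p = 0.0903). Without weeks 2 and 7 the values were rho = -0.8 and r = -0.79 for Ly-6C and rho = 0.6 and r = 0.41 for CD127. Cells lacking KLRG1 and CD103 gave rho = -0.943 for Ly-6C and 0.657 for CD127, in the same direction as the members, and whether the trends differ was not tested.

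In untreated mice, a smaller share of CD103-positive than of CD103-negative CD4 T cells carried KLRG1. The KLRG1-positive share of CD103-positive CD4 T cells was 6.67% at week 1 (3 of 45 cells), and 23.6%, 7.82%, 4.76%, 2.66%, 3.94% and 4.28% at weeks 2 to 7 in turn. It was below the share of CD103-negative cells in each of the 7 untreated libraries, with ratios of 0.234 to 0.721. The highest ratio is that of week 1, which rests on 3 cells and was 1.42 with cells thinned to 200 counts. CD103-positive cells also had a lower share than CD3-negative CD11b- or CD64-positive cells at week 1 (15.9%) and at week 5 (2.82%). These shares are read at the threshold that chose the members, so they are a description.

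Where both proteins were present, the median KLRG1 count was higher than on members. The median KLRG1 count of cells positive for both was 35, 56, 65, 48 and 99 at weeks 2 to 6 in turn, and in week 7 it was 136 in the treated library and 116.5 in the untreated one. The member medians of 20 to 33 counts were lower in each of these 7 libraries. Cells positive for both also had a higher median CD127 count than members in 7 of 7 libraries, at 4 to 13 counts against 1 to 8 at weeks 2 to 7, and a higher total per cell, at 1072 to 1614 counts against 719.5 to 1265. Members thus had the lower median KLRG1 and CD127 counts of the KLRG1-positive CD4 T cells, before any correction for depth. The KLRG1 threshold is read against a cell mean that contains CD103, so cells with much CD103 need a higher KLRG1 count to pass. The lowest KLRG1 count on cells positive for both was 8, 13, 14, 7 and 12 at weeks 2 to 6 in turn. On members it was 1, 3, 2, 1 and 2. The order of the KLRG1 counts is therefore bound to the rule and is a description.

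**Figure D5:**
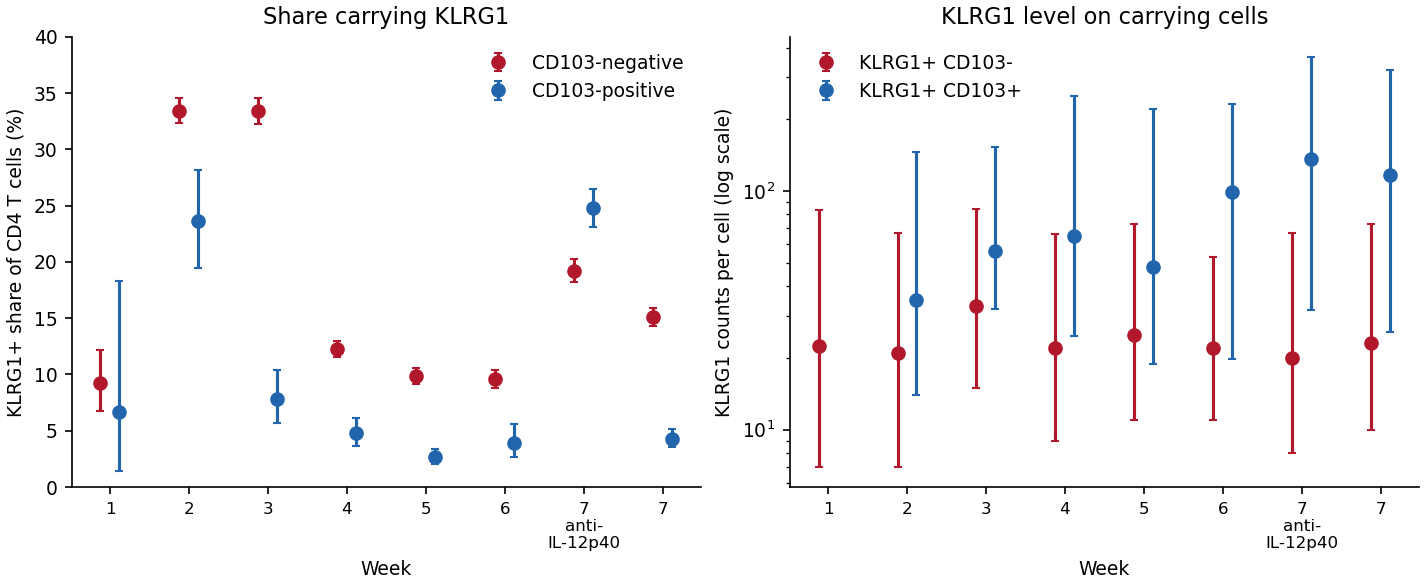
KLRG1-positive percent of CD103-positive and of CD103-negative CD4 T cells by library (with exact intervals of 95%) and the median KLRG1 count of the KLRG1-positive cells of each kind. In untreated libraries the share is lower among CD103-positive cells, and in the treated library it is higher, 24.8% against 19.2%.

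Anti-IL-12p40 was examined at week 7 with 1 library on each side, so there is no replicate check and no test. A share counted as different when its ratio was at least 1.5 in either direction, its intervals did not overlap and it lay outside untreated weeks 5 to 7, and 2 of 6 shares met this (33.3%). The shares of members did not. Members were 8.37% of all cells in the treated library (exact binomial interval of 95%, 7.89% to 8.87%), against 9.82% in the untreated one (9.29% to 10.4%), a ratio of 0.853. Of CD4 T cells they were 13.0% (12.3% to 13.8%) in the treated library, against 11.4% (10.8% to 12.03%) in the untreated one, a ratio of 1.14. Of CD103-negative CD4 T cells, 19.2% were KLRG1-positive in the treated library, against 15.1% in the untreated one, a ratio of 1.27. These intervals cover counting error only.

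The size rule was met by KLRG1 outside the members. The KLRG1-positive share of CD103-positive CD4 T cells was 24.8% in the treated library (639 of 2578 cells, interval 23.1% to 26.5%), against 4.28% in the untreated one (108 of 2521 cells, interval 3.53% to 5.15%), a ratio of 5.79. The share of CD3-negative CD4-negative cells without CD11b and CD64 that were KLRG1-positive was 45.1% in the treated library, against 26.9% in the untreated one, a ratio of 1.68, which was 1.33 and did not meet the rule with a KLRG1 threshold fitted in each library. Members were 31.3% of all KLRG1-positive cells in the treated library (29.8% to 32.9%), against 83.0% in the untreated one. Innate KLRG1-positive cells were 36.6% of that pool in the treated library, against 5.11% in the untreated one. Of all cells, these innate cells were 9.78% in the treated library and 0.605% in the untreated one. All CD3-negative CD4-negative cells without CD11b and CD64 numbered 2694 of 12437 in the treated library and 268 of 11907 in the untreated one. CD4 T cells were 64.3% and 86.1% of all cells in these libraries. The shares of the KLRG1-positive pool and of all cells therefore also follow the cell make-up of each library. Beside these values, KLRG1 also passed its threshold on 14.7% of CD3-negative CD11b- or CD64-positive cells in the treated library, against 2.82% in the untreated one. In the treated library 19.2% of CD103-negative and 24.8% of CD103-positive CD4 T cells were KLRG1-positive, both above the 14.7%. Which cell types make up these CD3-negative cells was not tested, so the 14.7% is not a measured background for the T cell shares.

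On the members, 2 of 5 levels met the size rule of a ratio of at least 1.5 (40%). On the centred scale, CD90.2 was 2.58 times as high on members of the treated library as on those of the untreated one. Ly-6G was at 0.446 times on that scale. The same ratios were 2.49 and 0.426 on cells lacking KLRG1 and CD103, so these values were close to those of the CD4 T cells around the members. CD127 differed by -0.01, Ly-6C by -0.14 and CD11c by 0.01 on the natural log scale, treated minus untreated, and did not meet the rule. With cells thinned to 200 counts Ly-6G differed by -0.31 and no longer met the rule, while Ly-6C differed by -0.46 and met it. Ly-6C also met it without centring, at -0.50, but was 0.26 when centred on Ly-6G and CD11c, and CD11c met the rule on that scale alone, at 0.41. CD90.2 met the rule on each of these scales. Over 17 alternatives its treated minus untreated difference was 0.587 to 1.35, and that of Ly-6G was -1.17 to -0.307. The CD127 difference between members and cells lacking both proteins was -0.34 in the treated library and -0.25 in the untreated library of week 7.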

How the data were processed

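The deposited values were raw whole-number counts of 11 antibodies for each barcode. Cell Ranger 6.0.2, Seurat 4.1.1 and mm10 appear, without a role, in the submitters' processing notes. The sources used here do not say how barcodes were selected. Of 64 samples, 55 were not used here. Barcodes under 50 counts or above the 99th percentile of their library were left out, which kept 130442 of 131917; no doublet caller was run. Members had centred log ratios above -0.155 for CD3, 0.652 for CD4 and -0.589 for KLRG1, and at or below 0.149 for CD103, 0.712 for CD11b and 0.105 for CD64. Members and lists were chosen with earlier results of these data known.

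Tests took libraries, not cells, as units: exact sign-flip and exact permutation tests, two-sided, with Benjamini-Hochberg adjustment at 0.05 (Python 3.11.15, numpy 2.4.6, scipy 1.17.1). Level tests used libraries with at least 50 members. The tests were checked on simulated data. Shares have exact Clopper-Pearson intervals, and a share of 0 allows 3 counts. The named proteins are all 5 that the rule did not use. Alternatives varied the cell filter, thinning, thresholds, centring and libraries.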

Additional observations from a re-analysis of the deposited data

Results flagged for a closer look

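The relation of KLRG1 to CD103 in the library of treated mice stood apart from that of the untreated libraries. The KLRG1-positive share of CD103-positive CD4 T cells, divided by that of CD103-negative CD4 T cells, was 1.29 in the treated library, against 0.234 to 0.721 in the 7 untreated libraries of weeks 1 to 7. It was thus above 1 in the treated library and below 1 in each untreated one, and the difference was not tested, since 1 treated library allows no test. Over the alternative gates and filters the treated library ranged between 1.08 and 1.54. At least 1 untreated library passed 1 when cells were thinned to 200 counts (up to 1.42), without the CD3 gate (up to 2.25) and with a gate of at least 10 KLRG1 counts (up to 1.14). KLRG1 passed its threshold on 14.7% of CD3-negative CD11b- or CD64-positive cells in the treated library and 2.82% in the untreated library of week 7. How this relates to the ratio was not tested.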

How the results depend on the processing

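The CD127 difference kept its negative mean under each of 26 alternatives against both comparators. It no longer passed in these, given as value against cells lacking KLRG1 and CD103, then against CD103-positive cells, then passing tests of 10: thinning to 200 counts (-0.16, -0.24, 0), KLRG1 threshold 0.25 lower, which brings week 1 in against the first comparator (-0.23, -0.40, 0), no CD3 gate, which brings weeks 0 and 1 in with 65 and 106 members (-0.18, -0.093, 3), no centring (-0.43, -0.66, 0), centring on Ly-6G and CD11c (-0.37, -0.50, 0) and week 1 added with a minimum of 40 members (-0.24, -0.32, 0). Leaving out 1 library gave -0.30 to -0.25 and -0.44 to -0.39, with 0 of 10 passing in each case (exact permutation adjusted p 0.0781 to 0.0893), since 5 libraries cannot pass.

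Other directions turned. Against cells lacking both proteins, Ly-6C, Ly-6G and CD11c were -0.12, -0.15 and -0.16 when centred on 11 antibodies and -0.024, -0.059 and -0.070 without centring, and CD11c was -0.0053 when centred on Ly-6G and CD11c. Against CD103-positive cells, Ly-6C and Ly-6G were -0.00025 and -0.044 without centring. CD11c there was 0.094 with medians and 0.013 with CD127 out of the gate's mean, and -0.069 to 0.051 without 1 library. CD90.2 against CD103-positive cells was 0.22 without the CD3 gate, 0.023 with a gate of 10 KLRG1 counts, 0.085 with week 1 and 0.041 in cells of 500 to 2000 counts, and -0.052 to 0.0055 without 1 library; against cells lacking both it was 0.013 with the gate of 10 counts and 0.0028 in the 500 to 2000 window.

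Trends that turned, none past the threshold, were those of the share of CD4 T cells (rho 0.107 with thinning, with a KLRG1 threshold per library and with the gate of 10 counts; -0.60 to 0.0857 without 1 library), the KLRG1-positive share of CD103-negative cells (0.107 with thinning and with the gate of 10 counts, 0.0357 with the threshold lower or per library; -0.66 to 0.20 without 1 library) and the share of all cells (-0.0857 without weeks 0 and 7). For levels they were CD90.2 (-0.36 with the KLRG1 threshold lower, per library or with week 1 added, -0.0857 centred on 11; -0.20 to 0.80 without 1 library), Ly-6G (-0.80 without weeks 2 and 7), and, without the CD3 gate, CD127 (-0.21) and Ly-6C (0.048).

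Treated over untreated ratios moved with a KLRG1 threshold per library to 0.655, 0.878, 0.977 and 4.55 (members of all cells, members of CD4 T cells, KLRG1-positive of CD103-negative, KLRG1-positive of CD103-positive), and with the gate of 10 counts to 0.700, 0.938, 1.04 and 4.41. The cause of these changes was not tested. Libraries could not be paired with each other, because each group held 1 library. The level tests were paired within a library, as members minus comparator. The gates of 10 counts and without CD127, the week 1 setting and the 500 to 2000 window were chosen after seeing the data. CD127 medians of 1 to 8 counts on members limit its resolution.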
